A study of Mus musculus with 42 samples.

Results

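RNA of MHCII-low medullary thymic epithelial cells (mTEC) was set against that of cortical thymic epithelial cells (cTEC) of mice of the genotype Control. The libraries were chosen by the labels alone: genotype Control, with the cell type Epcam+CD45-UEA+Ly51loMHCIIlo for MHCII-low mTEC and Epcam+CD45-UEA-Ly51+ for cTEC. This gave 4 MHCII-low mTEC libraries, after 1 of 5 that held 82 counts over 61 genes was left out, and 5 cTEC libraries, so 9 of the 42 libraries of the series. The other libraries came from the same subsets and from MHCII-high mTEC, in the genotypes KO, Ski flox Control and Control, in a study of the loss of Ski in thymic epithelium. The labels name each genotype by these words only, with no allele, Cre driver, strain, sex or age. Each library was made from 200 sorted cells with SMART-Seq v4, a full-length cDNA chemistry that marks neither strand nor molecule, and Nextera XT. The labels do not say which libraries came from which animals. The p-values therefore rest on the scatter among libraries, part of which may be technical. In such bulk libraries, fewer cells of a type and less RNA per cell cannot be told apart.

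Thymic epithelial cells form the stroma in which T cells mature. Cells of the cortex attract progenitors and show them peptides made by dedicated proteases, among them the thymoproteasome subunit Psmb11, the serine protease Prss16 and cathepsin L, and thereby select T cells that can recognise self MHC. Cells of the medulla display proteins of many other tissues, by way of the regulators Aire and Fezf2, and so delete or divert self-reactive T cells. The MHCII-low fraction of the medulla is known to be mixed: it holds immature cells and also cells that have passed the Aire stage and take on programmes of tuft, microfold, keratinocyte, neuroendocrine, muscle or gut cells. UEA is a lectin that binds fucose on the surface of medullary cells, and Ly51 is the surface peptidase encoded by Enpep.

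The libraries held 3497172 to 4767058 counts in MHCII-low mTEC and 4736246 to 7068077 counts in cTEC. A level is a CPM value, that is, the count of a gene relative to the TMM-normalised library size. They are listed in the order of replicates 1, 3, 4 and 5 for MHCII-low mTEC and of replicates 1 to 5 for cTEC. Replicate numbers were given here by the order of library numbers within each group, and were not taken to link libraries across subsets. At least 1 count was found for 18762 ± 2429 genes in MHCII-low mTEC and 15706 ± 1350.1 genes in cTEC (SD, n = 4 and 5). By an exact permutation test, two-sided, the means differed by 3056 genes with p = 0.0794, where 0.00794 is the smallest p these groups allow. After thinning every library to 3000000 counts the difference was 3303 genes (exact permutation p = 0.0476). The unthinned difference had the same direction in the early set of libraries (3482, 2 libraries against 3) and in the late set (2441, 2 against 2). These sets are runs of library numbers, not a batch that a label names. Correlations of log2(CPM + 1) across genes were 0.7497 to 0.867 among MHCII-low mTEC, 0.8204 to 0.926 among cTEC and 0.725 to 0.842 between the subsets. The log2 ratio of Xist to Y-linked genes was 0.346 and 0.935 in cTEC replicates 2 and 3. In the other libraries of both subsets it was 2.67 to 6.02. The part of sex was not tested, beyond a fit with this ratio as a covariate, which gave 234 genes higher and 16 lower.

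The cTEC libraries fell into unlike parts. Replicate 1 carried the most of the cortical genes, whereas replicates 2 to 5 carried RNA typical of mature dendritic cells, although the sort took CD45- cells. Ccr7, the receptor that guides mature dendritic cells, stood at 48.1, 771, 194 and 212 CPM in MHCII-low mTEC and 14.8, 1924, 1026, 4834 and 4274 CPM in cTEC. Ccl22, a chemokine of the same cells, stood at 208, 1151, 25.6 and 0.261 CPM in MHCII-low mTEC and 1.23, 3109, 2600.1, 2038 and 3771 CPM in cTEC. For both genes replicate 1 was the lowest cTEC library by far. All 13 mature dendritic genes of a list drawn up after the data were seen were detected in both groups, and together reached 460.1, 3882, 733 and 795 CPM in MHCII-low mTEC and 71.1, 9856, 7394, 15307 and 16659 CPM in cTEC. The difference in their mean log2 sum was -2.06 (two-sided exact permutation p = 0.278, adjusted p = 0.804 over the 8 lists of other cells). The 16 thymocyte markers summed to 106, 143, 1959 and 3399 CPM in MHCII-low mTEC and 6216, 4125, 2178, 1796 and 2967 CPM in cTEC (difference in mean log2 sum -2.47, exact permutation p = 0.0714, adjusted p = 0.571), with the early MHCII-low mTEC libraries far below the rest. Ptprc, which encodes CD45 and was selected against in the sort, was still read at 89.4, 90.6, 643 and 411 CPM in MHCII-low mTEC and 708, 461, 277, 887 and 938 CPM in cTEC. Among cTEC, parathyroid transcripts were read in replicate 3 alone: Pth, the parathyroid hormone gene, had 0, 7.01, 0 and 0 CPM in MHCII-low mTEC and 0, 0, 6007, 0 and 0 CPM in cTEC. Chga, the granule protein chromogranin A, had 65.6, 95.6, 13.4 and 63.9 CPM in MHCII-low mTEC and 0, 0, 10849.9, 0 and 0 CPM in cTEC. Plasma cell genes, also listed after the data were seen, summed to 242, 228, 6009.5 and 2417 CPM in MHCII-low mTEC and 7255, 723, 426, 13027 and 437 CPM in cTEC. The remaining lists of B cell, myeloid, endothelial, fibroblast and erythroid markers differed between the subsets by -0.63, -0.39, 0.39, 0.13 and -0.64 in mean log2 sum, with adjusted permutation p of 0.804 or more. The part of these other cells in the differences given here was not tested, beyond a fit with the mature dendritic level as a covariate.

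**Figure D1:**
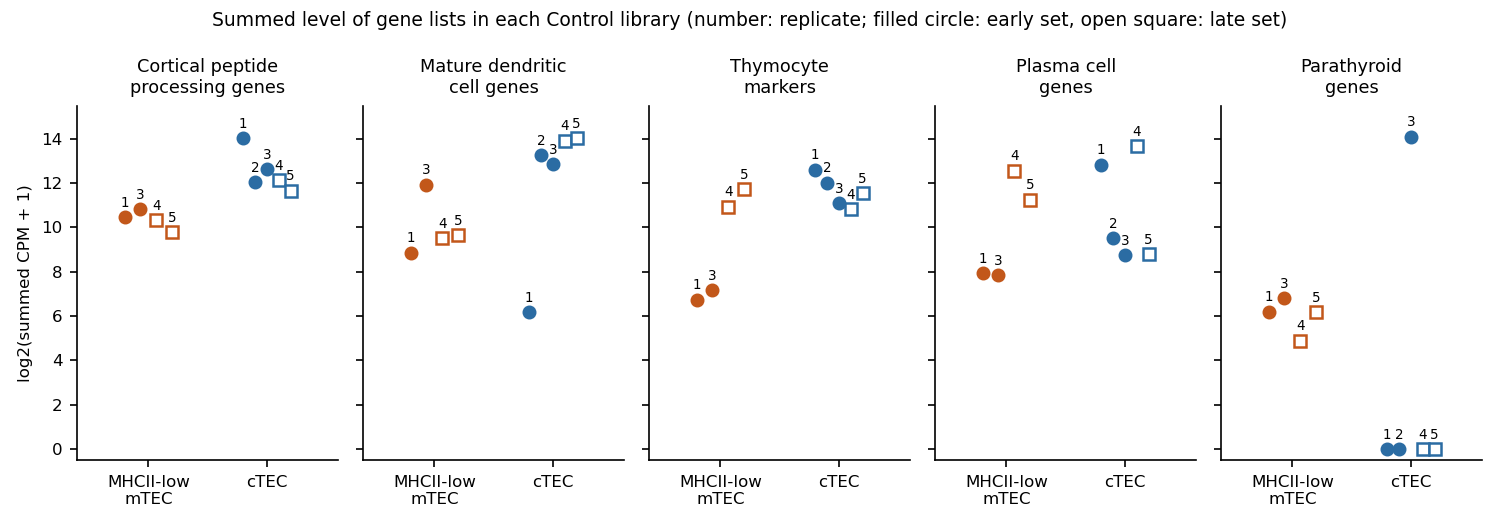
Summed level, as log2(summed CPM + 1), of the 7 cortical peptide processing genes, 13 mature dendritic cell genes, 16 thymocyte markers, 6 plasma cell genes and 4 parathyroid genes in each Control library, MHCII-low mTEC left and cTEC right, with replicate numbers. The cTEC replicate 1 is highest for the cortical genes and lowest for the mature dendritic genes, and the parathyroid genes stand out in cTEC replicate 3.

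Some markers went with the labels, while others missed the threshold, overlapped between the subsets or were near 0. The markers were chosen with earlier results of these data known. Those that went with the labels are therefore no separate check of the subsets. Wfdc18, Cystm1 and Cldn3 were higher in MHCII-low mTEC, as given with the secreted and junction genes. Cxcl12, the chemokine by which cortical stroma draws in progenitors, had 25.8, 76.4, 18.6 and 20.1 CPM in MHCII-low mTEC and 1980.1, 530.3, 583, 509 and 89.6 CPM in cTEC. The Cxcl12 groups did not overlap, but the difference missed the threshold (log2 fold change -4.39 ± 1.14 SE, adjusted p = 0.0552). Epcam, the epithelial adhesion molecule used to gate both subsets, was higher in MHCII-low mTEC (1247, 692, 1288 and 1434 CPM, against 284, 179, 321, 117 and 110.3 CPM in cTEC; log2 fold change 2.53 ± 0.41 SE, adjusted p = 0.00189), and is given as a description, since the sort used it for both subsets. Enpep, the gene of Ly51, gave 16.95, 0, 3.82 and 0 CPM in MHCII-low mTEC and 96.1, 41.7, 42.4, 23.9 and 0 CPM in cTEC, and so was absent from 1 cTEC library and from 2 MHCII-low mTEC libraries. Fut1 and Fut2, whose enzymes make the fucose linkage that UEA binds, were picked out after their values were seen. Fut1 had 44.2, 39.6, 40.2 and 19.05 CPM in MHCII-low mTEC and 0, 0, 0, 0 and 1.06 CPM in cTEC (adjusted p = 0.07). Fut2 had 33.2, 21.7, 24.6 and 44.9 CPM in MHCII-low mTEC and 4.400, 0, 1.102, 0 and 0 CPM in cTEC (adjusted p = 0.123). Neither gene passed, although the subsets did not overlap for either. The MHC class II genes, on which MHCII-low cells were gated against MHCII-high mTEC and not against cTEC, overlapped between the subsets. H2-Aa had 2687, 5459, 3244 and 2359 CPM in MHCII-low mTEC and 1899, 2807, 3706, 8071 and 6381 CPM in cTEC (log2 fold change -0.41 ± 0.40 SE, adjusted p = 0.718). In the late set alone, with 2 libraries of each subset, it was lower (-1.41, adjusted p = 0.0294). It stood at 0.54 in the early set and at 0.14 with the mature dendritic level as a covariate. H2-Ab1 had 4806, 7611, 7082 and 4744 CPM in MHCII-low mTEC and 3716, 3254, 4584, 11281 and 9038 CPM in cTEC (log2 fold change -0.07 ± 0.39 SE, adjusted p = 1). Ccl21a, the chemokine that marks immature medullary cells, had almost no reads in either subset (0 to 1.23 CPM in MHCII-low mTEC and 0 to 0.138 CPM in cTEC). Near-identical copies of this gene lie in the mouse genome, and reads that fit several copies may not have been counted. Foxn1, the master regulator of thymic epithelium, had 27.02, 22.6, 0 and 3.13 CPM in MHCII-low mTEC and 161, 53.4, 23.7, 0 and 0.531 CPM in cTEC (log2 fold change -1.85 ± 1.598 SE, adjusted p = 0.651). It was therefore at 0 in MHCII-low mTEC replicate 4 and in cTEC replicate 4, libraries that no label links. It was near 0 in cTEC replicate 5, the library that also lacked Enpep. Ski, the gene deleted elsewhere in the study, had 25.1, 44.5, 21.3 and 7.83 CPM in MHCII-low mTEC and 18.5, 13.5, 27.1, 21.3 and 3.36 CPM in cTEC (log2 fold change 0.56 ± 1.23 SE, adjusted p = 0.955), with overlapping groups.

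In all, 162 of 23040 genes were higher in MHCII-low mTEC than in cTEC, or 0.703% of the genes tested, and 16 were lower, or 0.0694%. Together they made up 0.773% (edgeR quasi-likelihood test, Benjamini-Hochberg adjusted p under 0.05 over all genes tested). At an unadjusted p under 0.05 there were 3338 genes higher and 787 lower, in all 17.9%. The genes higher had a median log2 fold change of 7.09, or 6.29 with genes absent from cTEC at the bound explained next, and 63 of the 162 had no count in any of the 5 cTEC libraries. The 16 genes lower had a median log2 fold change of -2.01, and none of them lacked counts in all MHCII-low mTEC libraries. The median over all genes tested was 0.14, and 54% of them had a positive fold change. Together with the 0.703% called higher and the 0.0694% called lower, this share is the one to set beside the counts given for each gene list. The lists were chosen with earlier results of these data known, so a count above these shares is a description and no separate support. For 138 of the genes higher and 10 of the genes lower, the groups did not overlap; over all genes tested this held for 5.08% in the higher and 1.42% in the lower direction. Of the genes higher, 148 were protein coding, and the exons of the genes higher and lower spanned a median of 2488.5 and 4424.5 bases, beside 3245.5 for all genes tested. For a gene absent from cTEC, the fold change is given as a bound, with cTEC set at 3 counts in all of its libraries together. Such a bound covers counting error only. The counts moved with single libraries. Without MHCII-low mTEC replicate 1 there were 72 genes higher and 0 lower, and without replicate 5 there were 102 and 2. Without MHCII-low mTEC replicate 3 or 4 the genes lower numbered 33 and 6. Without cTEC replicate 1, 2, 3, 4 or 5 there were 189, 52, 103, 41 and 51 genes higher and 26, 2, 9, 1 and 3 lower. Of 69 genes that passed and are named with values here or among the closing observations, 20 passed without any 1 of the 9 libraries: Wfdc18, Cystm1, Spink1, Fcgbp, Pglyrp1, S100a8, Ccl20, Krt20, Dsg1a, Gng13, Apoa1, Hamp2, Scg5, Mgst3, Ceacam10, Mei4, Calml4, Anks4b, Dio1 and the sorted Epcam. The other 49 missed the threshold without at least 1 library, most often without cTEC replicate 4, where 48 did.

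**Figure D2:**
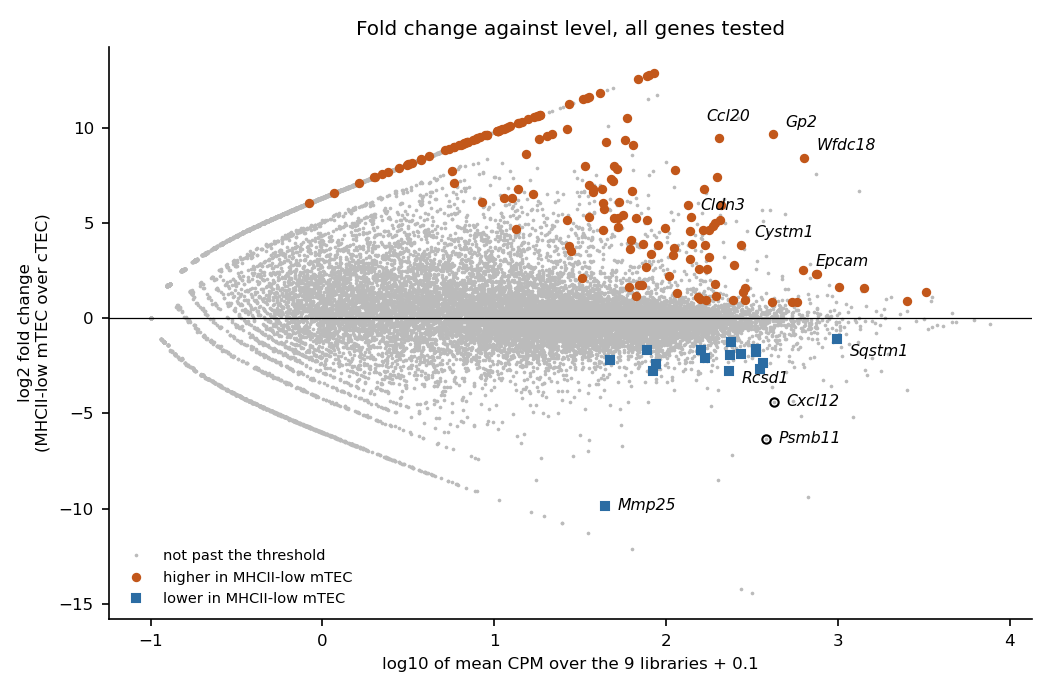
Log2 fold change (MHCII-low mTEC over cTEC) against the log10 of the mean CPM over the 9 libraries plus 0.1, for the 23040 genes tested; orange circles are the 162 genes higher, blue squares the 16 lower, and the rings are Cxcl12 and Psmb11, which did not pass. The upper rim of points holds genes with no count in cTEC, whose fitted fold change is not a bound.

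Secreted and mucosal proteins were among the genes higher in MHCII-low mTEC. Wfdc18, a small secreted protein with the whey acidic protein domain found in protease inhibitors, had 1567, 1941, 941 and 1225 CPM in MHCII-low mTEC and 2.82, 6.44, 0, 4.63 and 7.26 CPM in cTEC (log2 fold change 8.39 ± 0.97 SE, adjusted p = 4.06e-06). Cystm1, a small membrane protein with a cysteine-rich tail, had 764, 295, 729 and 483 CPM in MHCII-low mTEC and 52.8, 36.1, 56.5, 39.2 and 14.7 CPM in cTEC (log2 fold change 3.83 ± 0.45 SE, adjusted p = 4.06e-06). Both genes were high in all 4 MHCII-low mTEC libraries, and the lowest of these lay far above the highest cTEC library. Wfdc18 missed the threshold in limma voom (log2 fold change 9.39, adjusted p = 0.455), and Cystm1 missed it in the early set (adjusted p = 0.107). Spink1, the secreted trypsin inhibitor of the pancreas and gut, had 62.9, 297, 96.1 and 163 CPM in MHCII-low mTEC and no count in cTEC, at least 1533-fold higher (adjusted p = 0.00913). Fcgbp, a mucus protein that binds immunoglobulin G, had 1020.5, 159, 330.4 and 268 CPM in MHCII-low mTEC and 3.17, 2.63, 2.07, 0.232 and 4.96 CPM in cTEC (log2 fold change 7.39 ± 1.28 SE, adjusted p = 0.00366). Klk1, a tissue kallikrein, had 259, 7.46, 24.9 and 21.7 CPM in MHCII-low mTEC and none in cTEC, at least 775-fold higher (adjusted p = 0.0334), with replicate 1 well above the other 3. Of the 22 antimicrobial and mucosal genes listed, all were tested and had a positive fold change (median 6.27, or 5.94 with the members absent from cTEC at their bounds), and 5 passed the threshold. These were Cystm1, Pglyrp1, a peptidoglycan-binding antibacterial protein, S100a8, a subunit of calprotectin, Muc13, a membrane mucin, and Tff3, a trefoil peptide of goblet cells. Pglyrp1 had 215, 581, 111 and 489 CPM in MHCII-low mTEC and 3.52, 24.3, 18.1, 36.1 and 38.4 CPM in cTEC. S100a8 had 124, 216, 21.99 and 85.1 CPM in MHCII-low mTEC and 0, 1.902, 0, 0 and 0 CPM in cTEC. Tff3 had 5.404, 148, 0.239 and 11.5 CPM in MHCII-low mTEC and none in cTEC (adjusted p = 0.0369), and was high in replicate 3 alone. In the family of whey acidic protein domain genes, 13 of 15 tested members had a positive fold change (median 3.58, or 2.61 with the members absent from cTEC at their bounds), and the other 2 had no count in either subset. The 2 that passed were Wfdc18 and Wfdc2, a secreted protein of airway and genital epithelia (427, 300.2, 214 and 723 CPM in MHCII-low mTEC, against 42.2, 0, 20.3, 0.695 and 3.01 CPM in cTEC; log2 fold change 4.97 ± 1.24 SE, adjusted p = 0.0451).

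**Figure D3:**
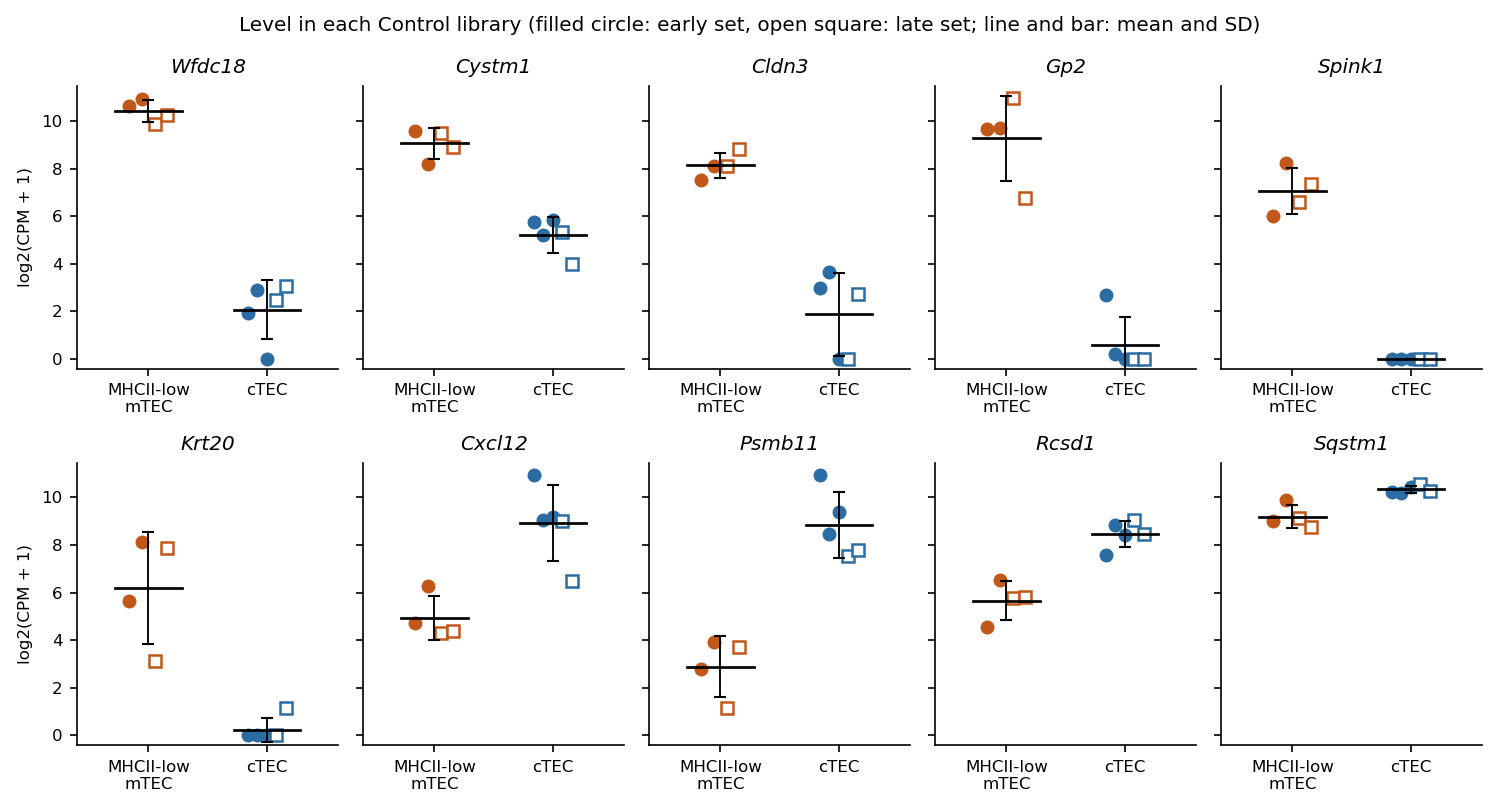
Level of 10 genes, as log2(CPM + 1), in each Control library, MHCII-low mTEC left of cTEC; filled circles are libraries of the early set and open squares of the late set, and line and bar give the mean and SD. The groups do not overlap for any of the 10 genes; Cxcl12 and Psmb11 did not pass the threshold, and their highest cTEC library is replicate 1.

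The stretches of DNA just before the start sites of these genes were read from RefSeq promoters (GRCm38.p6), because genes restricted to a single differentiated tissue often carry a TATA box, the letters TATAAA about 30 bases before the start, where the general transcription machinery binds. Among the 120 bases before the start, 3 genes with strong differences, Wfdc18, Gp2 and Krt20, held these letters on the strand of the gene (in capitals), 31, 32 and 29 bases before the start. Cldn3, another of the marker genes, is shown beside them and held none in the window.
Wfdc18, chr11:83708884-83709003, plus strand: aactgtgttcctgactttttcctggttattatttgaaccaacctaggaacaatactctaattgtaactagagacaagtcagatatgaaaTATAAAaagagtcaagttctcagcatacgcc
Gp2, chr7:119459273-119459392, minus strand: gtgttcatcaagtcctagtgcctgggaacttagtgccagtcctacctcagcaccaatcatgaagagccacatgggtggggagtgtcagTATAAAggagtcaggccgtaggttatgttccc
Krt20, chr11:99438154-99438273, minus strand: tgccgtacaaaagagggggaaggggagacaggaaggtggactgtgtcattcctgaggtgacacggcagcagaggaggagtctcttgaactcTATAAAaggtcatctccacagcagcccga
Cldn3, chr5:134986094-134986213, plus strand: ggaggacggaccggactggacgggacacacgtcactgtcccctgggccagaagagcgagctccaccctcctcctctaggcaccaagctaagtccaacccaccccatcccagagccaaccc
In the window from 40 to 20 bases before the start, TATAAA was found on the gene's strand in 11 of 154 promoters of genes higher in MHCII-low mTEC (7.14%; 116 genes matched by symbol), in none of 17 promoters of genes lower, in 2.1% of the promoters of genes tested and in 1.87% of all 32851 promoters in the table. Wfdc18, Gp2 and Krt20 are among the 11 genes higher with the letters in this window, so the stretches shown are not typical of the genes higher. On either strand the shares were 7.79% for genes higher and 2.31% for all promoters. These letters are a description of the windows, and show neither that a factor binds there nor that it does not elsewhere.

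Of the listed claudins, other tight junction genes and keratins, 6 were higher in MHCII-low mTEC. Cldn3, a sealing claudin of tight junctions, had 183, 274, 279 and 448 CPM in MHCII-low mTEC and 6.86, 11.7, 0, 0 and 5.67 CPM in cTEC (log2 fold change 5.92 ± 1.27 SE, adjusted p = 0.019). Cldn7, a claudin of the basolateral membrane, had 347, 232, 533 and 303 CPM in MHCII-low mTEC and 25.7, 0, 36.9, 2.32 and 5.67 CPM in cTEC (log2 fold change 4.64 ± 0.98 SE, adjusted p = 0.0172). For both claudins every MHCII-low mTEC library lay above every cTEC library. Of 22 tested claudin and tight junction genes, 16 had a positive fold change (median 2.23) and these 2 passed. All 19 listed keratins had a positive fold change (median 2.22) and 4 passed, beside 54% positive and 0.703% called higher over all genes tested. Krt19, a keratin of simple and glandular epithelia, had 519, 121, 421 and 417 CPM in MHCII-low mTEC and 12.5, 0, 0, 4.17 and 0 CPM in cTEC (log2 fold change 6.795 ± 1.66 SE, adjusted p = 0.0415). Krt20, a keratin of gut and urothelium, had 49.9, 282, 7.65 and 234 CPM in MHCII-low mTEC and 0, 0, 0, 0 and 1.24 CPM in cTEC (log2 fold change 9.06 ± 1.797 SE, adjusted p = 0.011). Krt23, a type I keratin, had 128, 83.9, 32.7 and 196 CPM in MHCII-low mTEC and 3.696, 0, 0, 0 and 0 CPM in cTEC (adjusted p = 0.0178). The epidermal Krt1 had 6.88, 85.9, 1.43 and 10.7 CPM in MHCII-low mTEC and none in cTEC (adjusted p = 0.0299). Thus Krt19 was present throughout MHCII-low mTEC, while Krt1 was near 0 in replicate 4 and highest in replicate 3. The keratinocyte-like list had 16 of 17 tested members with a positive fold change (median 4.75, or 4.23 with the members absent from cTEC at their bounds), and 3 passed, Krt1 among them. Dsg1a, a desmosomal cadherin, had 17.7, 37.3, 2.87 and 38.9 CPM in MHCII-low mTEC and none in cTEC (at least 239.7-fold higher, adjusted p = 0.000529). Cnfn, a cornified envelope protein, had 11.5, 149.6, 3.11 and 602 CPM in MHCII-low mTEC and none in cTEC (at least 1899-fold higher, adjusted p = 0.0175). Cnfn thus ranged widely within MHCII-low mTEC, and Dsg1a has near-identical relatives with which reads may be shared. In the list of junctional and MHCII-low medullary genes, which holds Krt5 and Krt14, 13 of 14 tested had a positive fold change (median 1.52) and only Cldn3 passed.

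Genes of microfold cells, which sample antigen over lymphoid tissue of the gut, formed a further group. Gp2, their receptor for bacterial fimbriae, had 802, 846, 2021 and 107 CPM in MHCII-low mTEC and 5.46, 0.146, 0, 0 and 0 CPM in cTEC (log2 fold change 9.69 ± 1.95 SE, adjusted p = 0.0123). Ccl20, the chemokine that draws in cells bearing Ccr6, had 139, 1067, 182 and 445 CPM in MHCII-low mTEC and 0, 0, 0, 0 and 3.19 CPM in cTEC (log2 fold change 9.45 ± 1.86 SE, adjusted p = 0.0105). With Pglyrp1 these made up the 3 of 11 tested microfold-like genes that passed, beside 0.703% called higher over all genes tested. Of the 11, 10 had a positive fold change (median 3.86), beside 54% over all genes tested. Gp2 was lowest in replicate 5 of MHCII-low mTEC, while Ccl20 was lowest in replicate 1, so the order of the libraries differed between these genes.

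Tuft cell genes had a uniform sign, although 1 of 18 passed the threshold. All 18 listed genes had a positive fold change (median 4.71), beside 54% over all genes tested. For 15 of the 18, every MHCII-low mTEC library lay above every cTEC library, which held for 5.08% of all genes tested. The list was chosen with earlier results of these data known, so this excess is no separate support. Only Gng13, the gamma subunit of the taste G protein, passed, with 163, 40.5, 113 and 176 CPM in MHCII-low mTEC and 9.15, 0.146, 0.276, 4.87 and 0 CPM in cTEC (log2 fold change 5.41 ± 1.11 SE, adjusted p = 0.015). Trpm5, the cation channel of taste and tuft cells, and Pou2f3, the factor that tuft cells need, were picked out after their values were seen. Trpm5 had 577, 293, 524 and 510.3 CPM in MHCII-low mTEC and 59.5, 0, 0, 5.56 and 8.68 CPM in cTEC (adjusted p = 0.163). Pou2f3 had 112, 30.7, 158 and 172 CPM in MHCII-low mTEC and 22.4, 0, 0, 0 and 0 CPM in cTEC (adjusted p = 0.137). In cTEC the signal of both came mainly from replicate 1. Tas2r105, a bitter taste receptor, passed with 241, 204, 197 and 56.1 CPM in MHCII-low mTEC and none in cTEC, at least 1732-fold higher (adjusted p = 0.0299).

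Transcripts of gut, liver, endocrine and muscle cells were also found in MHCII-low mTEC. Apoa1, the main protein of high-density lipoprotein, made in liver and gut, had 2.702, 189.9, 7.65 and 515 CPM in MHCII-low mTEC and none in cTEC, at least 1772-fold higher (adjusted p = 0.0131). It was the only one of 15 enterocyte and hepatocyte-like genes to pass, while all 15 had positive fold changes (median 6.41, or 5.74 with the members absent from cTEC at their bounds). Hamp2, a relative of the iron hormone hepcidin, had 45.2, 8.36, 27.7 and 48.8 CPM in MHCII-low mTEC and none in cTEC (at least 322-fold higher, adjusted p = 0.00933). Fgf21, the liver hormone of fasting, had 117, 189.6, 32.99 and 36.3 CPM in MHCII-low mTEC and 0, 0, 0, 0 and 4.25 CPM in cTEC (adjusted p = 0.0334). It was the only one of 23 tested FGF, EGF and IGF genes to pass (median log2 fold change 1.18). Scg5, a chaperone of neuroendocrine granules, had 171, 155, 35.1 and 40.96 CPM in MHCII-low mTEC and 0, 0, 0, 0 and 0.708 CPM in cTEC (log2 fold change 9.26 ± 1.75 SE, adjusted p = 0.00933). It was the only called member of the 14 neuroendocrine and ciliated-like genes (median 4.35, or 3.64 with the members absent from cTEC at their bounds). Myog, the myogenic factor myogenin, had 26.5, 33.2, 57.1 and 43.3 CPM in MHCII-low mTEC and none in cTEC (at least 397-fold higher, adjusted p = 0.0227), as the only called member of 12 tested muscle-like genes (median 2.82). These genes were not alike across libraries: Myog stayed within a narrow range, while Apoa1 was low in replicates 1 and 4 and high in replicates 3 and 5. Mei4, a factor of meiotic DNA break formation, was read at 28.99, 89.7, 46.9 and 0 CPM in MHCII-low mTEC and nowhere in cTEC (adjusted p = 0.0039), so that replicate 5 overlapped with cTEC at 0.

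Self-antigens known from other work to depend on Aire or Fezf2 were described by list. Of 12 tested Aire-dependent genes, 11 had a positive fold change (median 5.82, or 4.25 with the members absent from cTEC at their bounds) and 2 passed, S100a8 and Tff3. Of 13 tested Fezf2-dependent genes, 11 had a positive fold change (median 5.74, or 5.36 with the members absent from cTEC at their bounds) and 1 passed, Fabp9, a fatty acid binding protein of the testis, with 0.983, 45.9, 3.59 and 4.696 CPM in MHCII-low mTEC and none in cTEC (adjusted p = 0.0456). Aire itself had 40.04, 207, 4.06 and 4.696 CPM in MHCII-low mTEC and 0, 19.5, 59.4, 59.1 and 70.8 CPM in cTEC (log2 fold change 0.62 ± 1.25 SE, adjusted p = 0.942). In the late set alone, with 2 libraries of each subset, it was lower (-3.93, adjusted p = 0.00794). It was highest in replicate 3 of MHCII-low mTEC and was read in 4 of the 5 cTEC libraries. None of the 12 mature Aire-stage genes passed (median 0.08). The most abundant were Ubd and Cd40. Ubd, a ubiquitin-like modifier induced by cytokines, stood at 661, 3416, 361 and 371 CPM in MHCII-low mTEC and 422, 304, 639.8, 12.98 and 32.4 CPM in cTEC. Cd40, the receptor for T cell help, stood at 53.8, 387, 128 and 14.9 CPM in MHCII-low mTEC and 102, 393, 301, 819.6 and 867 CPM in cTEC.

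Among regulators, Sox7, a factor best known from endothelium, had 24.3, 39.3, 22.7 and 14.9 CPM in MHCII-low mTEC and none in cTEC (at least 251-fold higher, adjusted p = 0.0456). The 10 endothelial markers summed to 97.03, 1061, 136 and 104 CPM in MHCII-low mTEC and 75.7, 99.8, 621, 135 and 118 CPM in cTEC. Of the other regulators that passed, 4 of epithelial lineages were picked out after their values were seen. Elf3 and Ehf are Ets factors of epithelia. Elf3 had 416, 120.2, 689.9 and 563 CPM in MHCII-low mTEC and 32.6, 25.02, 0, 4.87 and 0 CPM in cTEC (adjusted p = 0.0495). Ehf had 522, 121, 647 and 337 CPM in MHCII-low mTEC and 28.3, 0, 20.1, 10.4 and 11.2 CPM in cTEC (adjusted p = 0.0329). Sox9, a factor of progenitors in hair follicle and gut, had 152, 63.5, 208 and 233 CPM in MHCII-low mTEC and 40.5, 4.83, 24.3, 5.33 and 4.96 CPM in cTEC (log2 fold change 3.36 ± 0.73 SE, adjusted p = 0.021). Foxa1, a pioneer factor of endoderm, was low in level with 12.5, 10.6, 19.1 and 9.13 CPM in MHCII-low mTEC and 0.352, 0, 0, 0 and 0 CPM in cTEC (log2 fold change 7.08 ± 1.48 SE, adjusted p = 0.0167). For all 4 the groups did not overlap.

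Further genes of large difference had varied roles. Mgst3, a microsomal glutathione transferase, had 358, 149, 292 and 288 CPM in MHCII-low mTEC and 72.5, 26.5, 23.7, 17.1 and 16.5 CPM in cTEC (log2 fold change 3.12 ± 0.501 SE, adjusted p = 0.00165). Ceacam10, a secreted member of the carcinoembryonic antigen family, had 127, 11.1, 16.5 and 90.01 CPM in MHCII-low mTEC and none in cTEC (at least 607-fold higher, adjusted p = 0.00165). Lypd2, a small membrane-anchored protein of the Ly6 family, had 181, 112, 11.5 and 15.7 CPM in MHCII-low mTEC and none in cTEC (at least 794-fold higher, adjusted p = 0.0193). Mgst3 was read in all 9 libraries, and Lypd2 was higher in both early libraries than in both late ones. Cxcl3, a neutrophil chemokine (10.2 to 56.7 CPM), Sectm1a, a secreted and transmembrane immune protein (2.09 to 54.98 CPM), and Tmem54, a membrane protein (17.7 to 40.7 CPM), were read in every MHCII-low mTEC library and in no cTEC library, with adjusted p of 0.0451, 0.0492 and 0.0271. Col4a4, a chain of the collagen of basement membranes, had 78.9, 20.3, 78.9 and 60.5 CPM in MHCII-low mTEC and 0, 0, 0, 0 and 0.177 CPM in cTEC, a single count there (adjusted p = 0.0346). Ceacam10, Hamp2, Klk1, Sectm1a and Cxcl3 have close relatives in the genome, with which reads may be shared. Exons of Cldn3, Hamp2, Tmem54, Muc13 and Gng13 overlap those of a gene on the other strand and those of Fabp9 a predicted gene on its own strand, and without strand these reads cannot be told apart.

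Subunits of the respiratory chain had small fold changes, mostly of the same sign. A list taken by symbol after the calls were seen held 96 nuclear-encoded subunits and assembly factors, of which 82 had a positive fold change and 8 passed, all higher in MHCII-low mTEC. Over all genes tested, 54% had a positive fold change and 0.703% were called higher. Cox7a2, a subunit of cytochrome c oxidase, had 370.2, 444, 301 and 459.7 CPM in MHCII-low mTEC and 185, 159, 288, 159.7 and 223 CPM in cTEC (log2 fold change 0.96 ± 0.21 SE, adjusted p = 0.0193). Cox8a, another subunit of that enzyme, had 728, 873, 562 and 685 CPM in MHCII-low mTEC and 352, 353, 532, 371 and 404 CPM in cTEC (log2 fold change 0.82 ± 0.19 SE, adjusted p = 0.0263). Ndufs6, a subunit of complex I, had 263, 264, 181 and 231 CPM in MHCII-low mTEC and 125, 120.3, 134, 105 and 120.4 CPM in cTEC (log2 fold change 0.96 ± 0.22 SE, adjusted p = 0.0279). The groups did not overlap for these 3 genes, although the differences were below 2-fold. The median over the list was 0.53, against 0.14 over all genes tested. It was 0.59 in the early set, 0.38 in the late set and 0.57 with RLE size factors. In the KO libraries it was 0.24, with 4 genes past the threshold. The exons of these genes spanned a median of 1578 bases; the part of transcript length was not tested.

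The 16 genes lower in MHCII-low mTEC were read in both subsets, and none of them belonged to the cortical list. Rcsd1, a regulator of actin capping known from blood cells and muscle, had 22.4, 91.3, 53.5 and 55.3 CPM in MHCII-low mTEC and 192, 463, 340.2, 525 and 352 CPM in cTEC (log2 fold change -2.75 ± 0.58 SE, adjusted p = 0.0167). Fam107b, a stress-related protein, had 86.7, 161, 121 and 67.6 CPM in MHCII-low mTEC and 403, 374, 299.7, 518 and 424 CPM in cTEC (log2 fold change -1.89 ± 0.43 SE, adjusted p = 0.0271). Sqstm1, the autophagy receptor p62, had 518, 940.5, 566 and 426 CPM in MHCII-low mTEC and 1211, 1149.6, 1388, 1520.3 and 1234 CPM in cTEC (log2 fold change -1.09 ± 0.27 SE, adjusted p = 0.0459). Tapbp, tapasin of the MHC class I loading complex, had 118, 236, 123 and 157 CPM in MHCII-low mTEC and 255, 955, 317, 574 and 288 CPM in cTEC (log2 fold change -1.59 ± 0.39 SE, adjusted p = 0.0415). In each of these 4, all cTEC libraries lay above all MHCII-low mTEC libraries, and the smallest gap was that of Tapbp. Pithd1, a proteasome-interacting domain protein, had 88.7, 51.3, 88.7 and 123 CPM in MHCII-low mTEC and 1569, 240.3, 698, 200.0 and 130.5 CPM in cTEC (log2 fold change -2.69 ± 0.64 SE, adjusted p = 0.0362), with replicate 1 of cTEC the highest. Itm2c, a transmembrane protein processed in the secretory pathway, had 146, 239.6, 109.7 and 80.6 CPM in MHCII-low mTEC and 347, 639, 605, 481 and 362 CPM in cTEC (log2 fold change -1.76 ± 0.43 SE, adjusted p = 0.0415). Ccng2, the atypical cyclin G2, had 62.9, 56.7, 61.7 and 60.8 CPM in MHCII-low mTEC and 118, 374, 114, 373 and 298 CPM in cTEC (log2 fold change -2.08 ± 0.504 SE, adjusted p = 0.0415), and was nearly even across MHCII-low mTEC.

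Nor did the groups overlap for Vps51, a tether of vesicles at the trans-Golgi (10.4 to 29.2 CPM in MHCII-low mTEC and 43.03 to 118 CPM in cTEC; log2 fold change -2.22 ± 0.53 SE, adjusted p = 0.0379). This held too for Strn4, a striatin scaffold (25.05 to 45.2 CPM in MHCII-low mTEC and 76.3 to 149 CPM in cTEC; log2 fold change -1.67 ± 0.43 SE, adjusted p = 0.0497), and for Rnf114, a ubiquitin ligase (82.5 to 155 CPM in MHCII-low mTEC and 250.3 to 453 CPM in cTEC; log2 fold change -1.26 ± 0.32 SE, adjusted p = 0.0497). They did overlap for the remaining 6. Poglut1, the enzyme that adds glucose to Notch receptors, had 124, 167, 109 and 50.6 CPM in MHCII-low mTEC and 128, 591, 409, 886 and 841 CPM in cTEC (log2 fold change -2.34 ± 0.54 SE, adjusted p = 0.0293). Gtpbp1, a GTP-binding protein of messenger RNA turnover, had 25.1, 4.29, 34.7 and 16.4 CPM in MHCII-low mTEC and 25.5, 156, 68.8, 246 and 183 CPM in cTEC (log2 fold change -2.75 ± 0.61 SE, adjusted p = 0.0219). Mmp25, a membrane-type metalloproteinase known from leukocytes, had 0, 0.226, 0 and 0 CPM in MHCII-low mTEC and 0, 145, 52.5, 108 and 91.4 CPM in cTEC (adjusted p = 0.0415), a single count in all of MHCII-low mTEC. In these 3 genes cTEC replicate 1 was the lowest cTEC library and lay within the range of MHCII-low mTEC. Gucd1, Gosr2, a Golgi SNARE, and Stard7, a carrier of phosphatidylcholine to mitochondria, had adjusted p of 0.0362, 0.0497 and 0.0451. Mmp25, Gosr2 and Stard7 complete the 16 and were named after their values were seen. For 10 of the 16 genes the lowest cTEC library was replicate 1, the library with the least mature dendritic RNA, and for 10 of 16 this library still lay above every MHCII-low mTEC library. With the mature dendritic level as a covariate, a fit added after the data were seen, all 16 kept a negative fold change and 5 passed, while all 162 genes higher kept a positive fold change and 102 passed. This fit used the libraries that had called these genes, so the kept signs are no separate support. Exons of Tapbp, Vps51, Rnf114, Sqstm1, Gtpbp1 and Gucd1 overlap those of other genes, so part of their reads may belong to neighbours.

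Known cortical genes did not pass the threshold in Control, although most did not overlap between the subsets. Psmb11, the cortex-restricted thymoproteasome subunit, had 5.896, 14.2, 1.195 and 12.3 CPM in MHCII-low mTEC and 1962, 354, 675, 183 and 223 CPM in cTEC (log2 fold change -6.33 ± 1.67 SE, adjusted p = 0.0593). Prss16, the thymus-specific serine protease, picked out after its values were seen, had 13.5, 56.1, 3.35 and 47.2 CPM in MHCII-low mTEC and 3090.2, 730.1, 1030.1, 463 and 59.7 CPM in cTEC (log2 fold change -5.16 ± 1.46 SE, adjusted p = 0.0774). Both were separate between the groups, and replicate 1 was the highest cTEC library for both. Tbata, a regulator of thymic epithelial growth, had 110.1, 565, 57.1 and 28.7 CPM in MHCII-low mTEC and 4676, 912, 1972, 1026 and 727 CPM in cTEC (log2 fold change -3.29 ± 0.96 SE, adjusted p = 0.0884). Ctsl, cathepsin L, had 867, 321, 674 and 342 CPM in MHCII-low mTEC and 6337, 1394, 1664, 1565 and 967 CPM in cTEC (log2 fold change -2.11 ± 0.83 SE, adjusted p = 0.177). Of the 7 cortical peptide processing genes 6 had a negative fold change (median -2.61), 5 did not overlap between groups and none passed. Over all genes tested, every MHCII-low mTEC library lay below every cTEC library for 1.42%. For 5 of the 7, replicate 1 was the highest cTEC library. Ccl25, the chemokine for progenitors bearing Ccr9, had 76.4, 391, 16.02 and 32.4 CPM in MHCII-low mTEC and 4364, 865, 1473, 708 and 278 CPM in cTEC (log2 fold change -3.58 ± 1.18 SE, adjusted p = 0.128). Cd83, a surface protein of cortical epithelium and of dendritic cells, had 29.7, 264, 154 and 134 CPM in MHCII-low mTEC and 1052, 1016, 780.0, 2393 and 1583 CPM in cTEC (log2 fold change -3.23 ± 0.998 SE, adjusted p = 0.106). Dll4, the Notch ligand that commits progenitors to the T lineage, had 5.404, 23.5, 0 and 16.96 CPM in MHCII-low mTEC and 10.03, 12.7, 13.4, 15.3 and 20.2 CPM in cTEC (log2 fold change -0.32 ± 1.64 SE, adjusted p = 1), with overlapping groups. Among the 10 thymocyte-instructive signals 4 had a positive fold change (median -0.20) and none passed.

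Lists of signalling, presentation and growth genes held few or no calls. Of 19 genes of RANK, CD40 and NF-kappaB, 16 had a negative fold change (median -0.86). Traf1, an adaptor of these receptors, had 67.6, 460.2, 101 and 43.8 CPM in MHCII-low mTEC and 45.9, 679.9, 509.6, 1564 and 1193 CPM in cTEC, lowest in cTEC replicate 1. Nfkbia, the inhibitor of NF-kappaB, had a log2 fold change of 0.02. Of 22 cell cycle genes, 21 had a negative fold change (median -1.15) and none passed. Mcm6, a subunit of the replicative helicase, had 11.5, 41.1, 73.6 and 78.01 CPM in MHCII-low mTEC and 377, 196, 169, 212 and 119.5 CPM in cTEC. Pcna, the sliding clamp, had 63.4, 103, 93.5 and 187 CPM in MHCII-low mTEC and 247, 102, 119.6, 105 and 128 CPM in cTEC. The cell cycle median was -2.40 in the early set and -0.22 in the late set. The difference in mean log2 sum of the thymocyte markers was -4.95 and 0.16 in these sets. The part of thymocyte RNA in the cell cycle values was not tested. The MHC class I list had 1 call, Tapbp (4 of 18 positive, median -0.55), the autophagy list 1, Sqstm1 (6 of 18 positive, median -0.15), and the chemokine list 1, Ccl20 (21 of 30 positive, median 1.40). No gene passed in the lists of MHC class II (median -0.48, with Cd74, the invariant chain, at -0.31), of lysosomal cathepsins and cystatins (-0.55, with the inhibitor Cst3 at -0.57), of Notch (-0.29), WNT (0.67), TGF-beta, BMP and SMAD (0.56), matrix adhesion (0.73), fucosylation (0.17), retinoid (-0.04), interferon-stimulated (0.05) or immediate early genes (0.39). The 4 parathyroid genes, high in cTEC replicate 3, had a median of -7.28, or -7.24 with members absent from a subset at their bounds. Nfkbia, Pcna, Cd74, Cst3, Dll4, Aire, Foxn1, Enpep and both class II genes changed sign under at least 1 other setting, and no direction is read from them. A p that misses the threshold does not show that these genes were alike in the subsets.

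**Figure D4:**
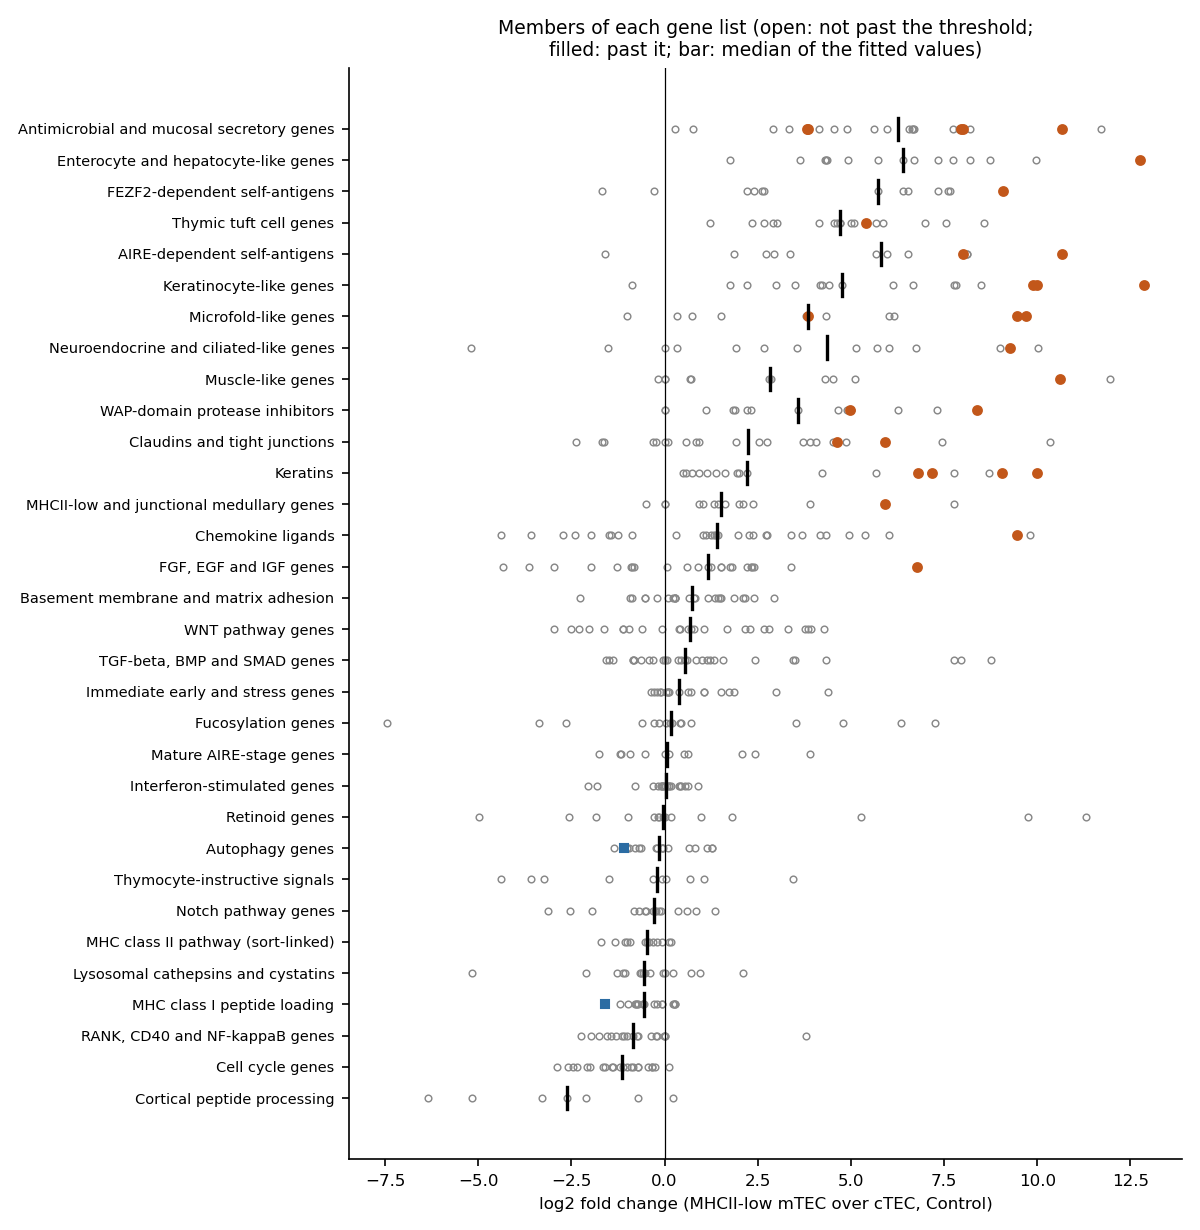
Log2 fold change (MHCII-low mTEC over cTEC, Control) of the tested members of the gene lists named on the axis. Not every list is shown, and those of other cells and of parathyroid genes are among those left out. Filled orange circles and blue squares are members past the threshold in the higher and lower direction, open circles did not pass, and bars are medians of the fitted values. Among the lists shown, the tissue-like and secretory ones lie right of 0 (antimicrobial median 6.27), and the cortical and cell cycle lists are among those left of it (-2.61 and -1.15).

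The same subset difference was read in KO and Ski flox Control libraries, whose levels do not enter the Control fold changes, although all 40 libraries share the estimate of the spread. With only the 9 libraries compared in the fit, 122 genes were higher and 13 lower, among them 60 of the 162 (124 of them tested) and 4 of the 16. In KO, with 7 MHCII-low mTEC and 7 cTEC libraries, 1195 genes were higher (5.19% of genes tested) and 113 lower (0.49%), in all 5.68%. Of the 162 genes higher in Control, all had a positive fold change in KO and 118 passed there too (72.8% of the Control list and 9.87% of the KO list). Of the 16 genes lower, 15 had a negative fold change and 8 passed (50% and 7.08% of the lists); the exception in sign was Strn4, at 0.51. Wfdc18 had a median of 918 CPM (lowest 208, highest 2578) in MHCII-low mTEC KO libraries and a median of 13.4 CPM (lowest 0, highest 43.98) in cTEC KO libraries (log2 fold change 5.70, adjusted p = 1.81e-05). Cldn3 had a median of 145 CPM (lowest 79.2, highest 484) in MHCII-low mTEC KO libraries and a median of 0 CPM (lowest 0, highest 12.2) in cTEC KO libraries (log2 fold change 5.62, adjusted p = 0.00198). Spink1 had a median of 12.1 CPM (lowest 3.69, highest 115) in MHCII-low mTEC KO libraries and a median of 0 CPM (lowest 0, highest 53.04) in cTEC KO libraries (log2 fold change 2.05, adjusted p = 0.289), and its groups overlapped in KO. Its difference between the genotypes had an adjusted p of 0.453. Cortical genes passed in KO where they had not in Control, with a log2 fold change of -4.06 for Cxcl12 (adjusted p = 0.00667) and -5.13 for Psmb11 (adjusted p = 0.0118). In KO 12 of the 18 tuft cell genes passed, against 1 in Control. So did 13 of the 22 antimicrobial genes, against 5, and 9 of the 15 enterocyte and hepatocyte-like genes, against 1. Over all genes tested, 5.19% were called higher in KO and 0.703% in Control, which had fewer libraries. The fitted median log2 fold changes in KO and Control were 5.396 and 4.71 for tuft cell genes. They were 6.08 and 6.27 for antimicrobial genes, and 6.39 and 6.41 for enterocyte and hepatocyte-like genes. In the respiratory chain list 4 passed in KO, against 8 in Control. The higher counts alone therefore do not show a larger difference in KO. For Cxcl12 and Psmb11 the difference between genotypes had adjusted p of 1 and 1. Over all genes, the interaction of subset and genotype gave none with an adjusted p under 0.05 in edgeR (0% of genes tested). There were 1701 genes, or 7.38%, at an unadjusted p under 0.05, whereas DESeq2 called 193 higher and 177 lower. In Ski flox Control, with 2 libraries of each subset, edgeR called no gene (0%). At an unadjusted p under 0.05 there were 791 (3.43%), and DESeq2 called 580 higher and 110 lower. In the edgeR fit 134 of the 162 genes higher and 15 of the 16 lower had the sign seen in Control.

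**Figure D5:**
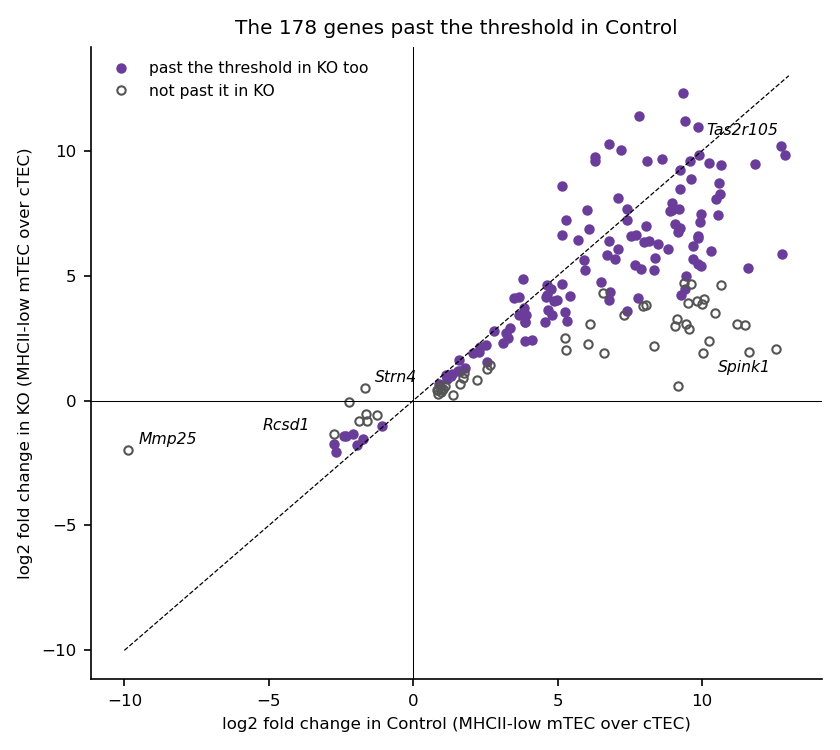
Log2 fold change (MHCII-low mTEC over cTEC) in KO against that in Control for the 178 genes past the threshold in Control; filled points also passed in KO, open points did not, and the dashed line marks equal values. All genes right of 0 in Control lie above 0 in KO, and Strn4 is the single gene left of 0 in Control that lies above it in KO.

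MHCII-high mTEC of the same genotype were set beside these groups. Their comparison with MHCII-low mTEC shares the 4 MHCII-low libraries with the one against cTEC, so values are only placed side by side. Wfdc18 had 985, 1485, 1109 and 539.9 CPM in the 4 MHCII-high mTEC libraries (log2 fold change of MHCII-high over MHCII-low -0.46), and Cystm1 had 230.3, 377, 642 and 333 CPM (-0.52). Cldn3 had 72.01, 185, 230.0 and 164 CPM (-0.86) and Gp2 78.3, 592, 433 and 547 CPM (-1.19). For these 4 genes the MHCII-high mTEC libraries all lay above every cTEC library. No gene passed the threshold between the medullary subsets in edgeR (0% of genes tested; 1720, or 7.47%, at an unadjusted p under 0.05). DESeq2 called 146 higher and 65 lower.

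The genes called were also read within each set of library numbers. They had been called from these same libraries, so a kept sign was largely set by that choice and is no separate support. In the early set (2 MHCII-low mTEC and 3 cTEC libraries) all 162 genes higher and all 16 lower had the same sign, and 1 of them passed. In the late set (2 and 2) 160 of the 162 and all 16 had the same sign, and 69 and 12 passed. The log2 fold change of Wfdc18 was 9.13 in early and 7.45 in late libraries, that of Cystm1 3.45 and 4.45, and that of Cldn3 5.18 and 6.88. Cxcl12 stood at -4.39 in early and -3.99 in late libraries, and Psmb11 at -6.68 and -4.97. With the set as a covariate of the whole fit, 244 genes were higher and 27 lower, among them 161 of the 162 and all of the 16.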

How the data were processed

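Full-length cDNA of 200 sorted cells per library was sequenced, and the table used here holds the read counts per gene that the authors deposited for 42 libraries, over 53465 Ensembl identifiers. Counting used HTSeq 0.4.1, and FastQC 0.11.3, SAMtools 1.2, Picard 1.134 and the build GRCm38 are named too, per the submitters' processing notes; the aligner is not given in the sources used here. Symbols came from GENCODE M21, which held 53360 of the identifiers. Reads were counted without strand or molecular identifiers known from the labels, so copies made in amplification could not be told from separate molecules, and intervals and bounds cover counting error only.

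From these counts, 2 libraries under 100000 total counts were left out, 1 of them an MHCII-low mTEC Control library, which left 40 libraries of 3217251 to 7068077 counts. Genes were kept by filterByExpr (minimum count 10, minimum total 15), libraries were scaled by TMM, and edgeR 4.0.16 (R 4.3.3) fitted 1 mean per group of subset and genotype over all 40 libraries with quasi-likelihood tests. Benjamini-Hochberg adjustment ran over all 23040 genes tested and calls were made at 0.05. The common biological coefficient of variation was 1.40. Per-library values were compared with two-sided exact permutation tests. DESeq2 1.42.0, limma 3.58.1 (voom), other filters, scalings, covariates and library sets served as alternatives, and the code was tested on simulated counts. The simulation used a smaller spread than that of these libraries, so it checks the code and not the power or error rate here.

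Genes named with values were the markers and sort genes, up to 14 per direction of largest fold change (groups not overlapping, and a median of 10 CPM or more where higher), up to 10 per direction of smallest p, and up to 4 passing members per list; predicted, Rik, mitochondrial and sex-linked genes were left out, and a gene that this rule names is not reported here. For lists without a passing member the most abundant members are named only where they bear on the identity of a subset, a departure from that rule, which would have named them for every list. The members and gene lists were chosen with earlier results of these data known. Promoter sequences came from RefSeq (GRCm38.p6), matched by symbol, and searched for TATAAA on both strands.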

Additional observations from a re-analysis of the deposited data

Results flagged for a closer look

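In 198 groups of 4 or 5 libraries, 1 per gene or marker sum and subset, the gap between an extreme library and its neighbour was compared with the range of the group on the log2(CPM + 1) scale. Chance sets apart about 1 in 20 such groups. That rate does not cover groups where 1 library alone had counts, since its gap then equals the range by construction. Several such groups are among those below, so no excess over chance is read. In all, a library stood apart in 34 cases here, with the same library counted anew for each value. No explanation was tested for any of them.

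Among cTEC libraries, replicate 1 stood apart for 12 values. It was high for Ctsl (6337 CPM), Krt23 (3.70 CPM), Gp2 (5.46 CPM), Pcna (247 CPM), Foxa1 (0.352 CPM) and Pou2f3 (22.4 CPM). It was low for Cst3 (454 CPM), Ccr7 (14.8 CPM), Ccl22 (1.23 CPM), Mmp25 (0 CPM), the summed myeloid and dendritic markers (739 CPM) and the summed mature dendritic cell genes (71.1 CPM).

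Replicate 3 of cTEC was the only cTEC library with Chga (10849.9 CPM) and Pth (6007 CPM), was highest for the summed endothelial markers (621 CPM), and held a single trace of Ccl21a (0.138 CPM). Replicate 5 of cTEC was the only cTEC library with Col4a4 (0.177 CPM), Krt20 (1.24 CPM), Ccl20 (3.19 CPM), Scg5 (0.708 CPM), Fgf21 (4.25 CPM) and Fut1 (1.06 CPM), all low beside MHCII-low mTEC. Replicate 2 of cTEC was the only one with S100a8 (1.90 CPM) and Muc13 (1.32 CPM) and the only one without Ehf (0 CPM).

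Among MHCII-low mTEC libraries, replicate 3 was lowest for Krt19 (121 CPM), and highest for the summed endothelial markers (1061 CPM), Pth (7.01 CPM) and Mmp25 (0.226 CPM). Replicate 5 was lowest for Tas2r105 (56.1 CPM) and Fut1 (19.0 CPM), replicate 4 was highest for Vps51 (29.2 CPM) and lowest for Scgb1a1 (0 CPM), and replicate 1 was lowest for Rnf114 (82.5 CPM).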

How the results depend on the processing

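The number of genes past the threshold depended on the processing. The 178 genes were called from libraries that every other setting uses again in whole or in part, so a kept sign was largely set in advance. Of the 4228 values of the 178 genes under another setting, 2 did not keep their sign. Both were in the late set, Pomc at -0.57 and Slurp2 at 0. Of the 1648 such values of the 69 named genes that passed, 535 missed the threshold. Of these genes, 19 missed it in limma voom, 32 with only the 9 libraries compared, 68 in the early set and 34 in the late set. Against 162 genes higher and 16 lower, there were 310 and 28 with a filter of 10 CPM in 4 libraries, 1267 and 254 in DESeq2, 987 and 51 in limma voom, 90 and 10 with all 42 libraries, 774 and 68 with Control and Ski flox Control pooled, 1 and 0 in the early set, 288 and 422 in the late set, 244 and 27 with the set as a covariate, and 386 and 36 with only the 13 Control libraries. The genes lower numbered 29 with detected genes as a covariate, 8 with no count filter and 7 with the mature dendritic level as a covariate, chosen after seeing the data. Leaving out each library in turn gave 41 to 189 genes higher and 0 to 33 lower. In KO, against 1195 higher and 113 lower, DESeq2 gave 2002 and 319, a fit of only the groups compared 45 and 7, and no count filter 54 lower. DESeq2 gave 580 and 110 in Ski flox Control, 193 and 177 for the interaction, and 146 and 65 for MHCII-high against MHCII-low mTEC, where edgeR gave 0.

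Cxcl12 kept its negative sign in every alternative and passed in 7 of them, Psmb11 in 7. The difference in detected genes was 3303 when thinned and 2161 to 3918 when a library was left out, past the threshold without MHCII-low mTEC replicate 3. The thymocyte sum ranged over -3.33 to -1.66, the endothelial over -0.42 to 0.90, the fibroblast over -0.54 to 0.82 and the erythroid over -1.34 to 0.65 in the same way.

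The other sign changes among named genes were in genes that had not passed. In the early set, H2-Aa stood at 0.54, H2-Ab1 at 0.68, Dll4 at 0.25 and Cd74 at 0.58. In the late set, Foxn1 stood at 2.29, Aire at -3.93 (past the threshold there, adjusted p = 0.00794), Nfkbia at -0.70, Pcna at 0.22, Chga at 10.54 (adjusted p = 0.0191) and Pth at 0. With the dendritic covariate, H2-Aa stood at 0.14, H2-Ab1 at 0.34, Cd74 at 0.11, Cst3 at 0.89, Ccr7 at 0.17 and Ccl22 at 0.79. With control genotypes pooled, H2-Ab1 stood at 0.27, Dll4 at 0.16, Cst3 at 0.077 and Nfkbia at -7.45e-06. Enpep stood at 0.16 and Nfkbia at -0.11 with detected genes as a covariate, H2-Ab1 at 0.055 with the set as a covariate, Cst3 at 0.22 and Chga at 5.75 in limma voom, and Nfkbia at -0.0063 with the Xist to Y ratio as a covariate and -0.36 with all 42 libraries. With a library left out, the ranges were H2-Ab1 -0.24 to 0.23, Dll4 -0.94 to 0.094, Aire -1.36 to 1.01, Nfkbia -0.11 to 0.34, Pcna -0.70 to 0.027, Chga -5.51 to 11.19, Pth -15.52 to 6.06. Chga without cTEC replicate 3 is set against a group at 0, so its value is a fitted one and no bound (adjusted p = 0.0208). The cause of these changes was not tested. No paired analysis was possible because the labels give no replicate numbers and tie no libraries to an animal; runs of library numbers were not taken as pairs. Without strand, molecule tags or animals named, depth and cell number limit what single low genes can show.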

Other observations

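Among the other genes past the threshold, several groups were picked out by eye after their values were seen, so they are given as values with no test of the group, and overlap of their exons with other genes was not examined. Parts of the brush border, the microvilli on the face of gut and sensory epithelia, were higher in MHCII-low mTEC. Espn, which bundles actin in microvilli, had 241, 116, 216 and 277 CPM in MHCII-low mTEC and 22.7, 5.27, 5.65, 3.48 and 2.12 CPM in cTEC (log2 fold change 4.75, adjusted p = 0.0172). Calml4, a light chain of brush border myosin, had 189, 84.1, 141 and 151 CPM in MHCII-low mTEC and 1.58, 4.98, 0, 0 and 0 CPM in cTEC (log2 fold change 6.697 ± 1.28 SE, adjusted p = 0.00938). Anks4b and Ush1c, scaffolds that link neighbouring microvilli, had 3.91 to 50.4 CPM and 1.04 to 20.1 CPM in MHCII-low mTEC and no count in cTEC (adjusted p = 0.0113 and 0.0456). The subsets did not overlap for any of the 4 genes, and within MHCII-low mTEC the levels of Anks4b and Ush1c were higher in both early libraries than in both late ones.

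Transporters and secreted proteins of airway and gland also appeared. Cftr, the chloride channel of secretory epithelia, had 15.2, 0.678, 9.08 and 2.35 CPM in MHCII-low mTEC and none in cTEC (adjusted p = 0.0296). Scgb1a1, the club cell secretoglobin of the airway, had 30.7, 37.97, 0 and 25.3 CPM in MHCII-low mTEC and none in cTEC (adjusted p = 0.0451). Cftr was near 0 in replicate 3 of MHCII-low mTEC and Scgb1a1 was at 0 in replicate 4. Dio1, the deiodinase that activates thyroid hormone, had 189, 509.9, 215 and 261 CPM in MHCII-low mTEC and 37.3, 6.88, 3.58, 8.57 and 5.84 CPM in cTEC (log2 fold change 4.56 ± 0.86 SE, adjusted p = 0.00913). Pomc, the precursor of pituitary hormones, had 263, 66.00, 2.15 and 0 CPM in MHCII-low mTEC and 1.06, 0, 0, 1.39 and 1.77 CPM in cTEC (log2 fold change 6.61 ± 1.64 SE, adjusted p = 0.0451), and was high in both early MHCII-low mTEC libraries and near 0 in both late ones. In KO the fold changes of Espn, Calml4, Cftr, Scgb1a1 and Dio1 passed the threshold in the same direction, with adjusted p of 0.00178, 0.00122, 0.0085, 0.00407 and 0.00667, and that of Pomc did not (0.309).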
